A study of Homo sapiens with 6 samples.

Results

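The genes described here are the human RNA-modifying families whose symbols begin with TRMT, NSUN, PUS, METTL or FTSJ followed by a digit, together with DUS1L, DUS3L and DUS4L, where the gene table lists a protein_coding transcript. The name rule found 59 genes among the 35253 genes with a count in at least 1 library, and left out 11 like-named genes without such a transcript. A name is not a function: 14 of the 59, in the METTL series, are protein methyltransferases or have no well-settled RNA substrate, and TRMT112 is a partner subunit without catalysis of its own. RNA was measured from HK2 cells, a proximal tubule epithelial line from human kidney, collected 48 h after they received a plasmid encoding VMP1 with a FLAG tag. Libraries of polyadenylated RNA were made from 3 total lysates, which the titles call positive controls, and from 3 anti-FLAG immunoprecipitates (IP 1 to 3, each name standing for the library so labelled). All 6 libraries thus come from cells given a FLAG-VMP1 plasmid, and no immunoprecipitate from cells without the tag was analysed here. The question put by this design is which RNAs are more abundant in the FLAG-VMP1 immunoprecipitate than in the lysate. Separate cultures are not stated for the 3 libraries of a group, and the spread behind each p-value may therefore be technical.

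RNA nucleotides are modified after transcription by enzymes that each recognise particular RNAs and positions. Pseudouridine synthases (PUS) rotate uridine into its isomer pseudouridine, dihydrouridine synthases (DUS) reduce uridine in tRNA, and methyltransferases transfer a methyl group from S-adenosylmethionine to a base or a ribose. TRMT enzymes act mainly on tRNA, NSUN enzymes methylate cytosine, FTSJ enzymes methylate ribose, and the METTL family ranges from METTL3 and METTL14, the core of the mRNA m6A writer, to enzymes that modify proteins. VMP1 itself is a membrane protein of the endoplasmic reticulum with roles in autophagy. What is compared here is the abundance of the mRNAs that encode the modifying enzymes, not their activity or the modifications.

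Libraries held 77753608 to 92948069 counts for the lysates and 54363555 to 59293096 for the immunoprecipitates. The library labelled immunoprecipitate 2 stood apart from the other 2. Shifts from the lysate mean across 20593 genes correlated at 0.642 between IP 1 and IP 3 but at 0.05 and 0.02 between each of these and IP 2, a description in which the shared lysates enter every shift. The mRNA of VMP1, the tagged gene, was at 297, 301 and 306 CPM (counts scaled to library size, with edgeR's TMM factors) across the lysates and 2344 and 2682 CPM in IP 1 and IP 3, but at 273 CPM in the library labelled immunoprecipitate 2. The main fold changes are therefore given for all 6 libraries and for the 5 without that library, called the 5-library fit. A rise or fall below refers to the 5-library fit, since no member was called over 6 libraries by edgeR. That fit was chosen for the text after the values were seen. Its SEs and adjusted p-values rest on 2 immunoprecipitates that resemble each other and may be too small. Of the epithelial markers, KRT8 and PAX8 were abundant in the lysates, while the proximal tubule markers CUBN, AQP1 and SLC34A1 were below 2 CPM. The summed markers of other cells were below every lysate in IP 1 and IP 3 but not in IP 2. The summed level of 9 neutrophil and leukocyte markers was 375 to 625 CPM in lysates and 138, 451 and 22.6 CPM in IP 1, 2 and 3. That of 9 fibroblast markers was 160 to 187 CPM in lysates and 24.1, 347 and 25.9 CPM. Among these, COL1A2 was at 0 in IP 1 and IP 3, and all 9 fibroblast markers were below every lysate in both; the 5 endothelial markers summed to 17.9 to 31.6 CPM in lysates and 6.87, 24.9 and 2.91 CPM. The 13 kidney epithelial markers summed to 2929 to 3148 CPM in lysates and 1533, 2101 and 1538 CPM. In bulk lysates the number of cells of a type and the RNA per cell cannot be told apart. Levels in an immunoprecipitate are those of the RNA recovered with it and do not count cells. The part of these other transcripts in the results below was not tested.

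The promoters of members on both sides of the comparison are shown because they carry the same short motif. In RefSeq's promoter table (GRCh38.p14), 49 of the 59 genes had an entry, with 66 windows running from 250 bases before to 50 after a transcription start. The letters CCGGAAG, the core recognised by ETS-family transcription factors, were searched on both strands. They occurred in 22 of the 66 windows (33.3%) and in 20 of the 49 genes (40.8%), against 12.8% of 22198 windows of protein-coding genes and 16.5% of those genes. The GC-box letters GGGCGG occurred in 62.1% of member windows against 56.3% of all, and TATAAA in 6.06% against 9.47%. Matches are a description of these letters, not of binding. Below are the 150 bases before the RefSeq start of 5 members, 5′ to 3′ on the gene's strand, chosen after their values were seen, with CCGGAAG or its reverse complement in capitals. The first 3 were higher and the last 2 lower in IP 1 and IP 3.
TRMT13 (tRNA ribose methyltransferase, chr1:100133013-100133162, plus strand): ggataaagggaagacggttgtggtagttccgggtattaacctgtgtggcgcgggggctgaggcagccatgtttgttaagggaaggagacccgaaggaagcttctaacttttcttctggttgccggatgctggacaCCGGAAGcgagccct
TRMT10C (subunit of mitochondrial RNase P, chr3:101561718-101561867, plus strand): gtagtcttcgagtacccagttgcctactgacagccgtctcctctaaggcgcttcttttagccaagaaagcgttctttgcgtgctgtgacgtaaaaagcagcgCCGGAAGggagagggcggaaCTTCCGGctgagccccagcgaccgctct
NSUN6 (cytosine methyltransferase, chr10:18659239-18659388, minus strand): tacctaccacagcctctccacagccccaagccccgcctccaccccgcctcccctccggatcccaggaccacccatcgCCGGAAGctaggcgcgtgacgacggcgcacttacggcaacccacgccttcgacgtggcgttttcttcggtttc
TRMT112 (shared partner subunit, chr11:64317560-64317709, minus strand): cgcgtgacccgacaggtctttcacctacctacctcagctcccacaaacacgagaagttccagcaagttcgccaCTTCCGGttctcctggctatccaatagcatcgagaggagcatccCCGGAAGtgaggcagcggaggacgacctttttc
TRMT61A (catalytic subunit for tRNA m1A, chr14:103529046-103529195, plus strand): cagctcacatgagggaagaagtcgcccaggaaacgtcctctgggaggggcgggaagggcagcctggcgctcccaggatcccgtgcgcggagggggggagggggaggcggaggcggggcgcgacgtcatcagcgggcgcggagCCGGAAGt
TRMT10C and TRMT112 carried 2 matches each within the stretch shown, and the other 3 carried 1. METTL3, METTL5, METTL14 and TRMT6 had a match in their window as well.

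Across all 6 libraries none of the members passed the test. In edgeR's quasi-likelihood fit over 20593 genes (Benjamini-Hochberg adjusted p below 0.05), 0 members were called higher, beside 0.16% of all tested genes, and 0 lower, beside 0.5%. At an unadjusted p below 0.05, 12 members were higher and 1 lower, beside 11.9% and 9.44% of all genes, and DESeq2 called 7 higher (9.43% of all genes) and 0 lower (5.9%). These 7 were NSUN6, METTL17, PUS3, PUS7, TRMT12, NSUN2 and DUS1L. In the 5-library fit 27 members rose (23.9% of all 22062 genes tested) and 7 fell (27.2%), while 23 were not called. The filter on low counts passed 57 members. METTL24 had a trace only in lysate 1 and METTL21C only in IP 1, so neither was tested.

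The members' median log2 fold change, immunoprecipitate over lysate, was 0.35 in the 6-library fit (all tested genes 0.06) and 0.37 in the 5-library fit (all genes -0.06). Per library, the median shift of members from the lysate mean was 0.38, 0.24 and 0.29 in IP 1, 2 and 3, where all genes had -0.05, -0.01 and -0.21. The summed level of the 59 genes was 1250, 1317 and 1294 CPM in the lysates and 1639, 1676 and 1617 CPM in the immunoprecipitates, so the 2 groups did not overlap. In all 3 immunoprecipitates 15 members were above every lysate (13.3% of all genes) and 4 were below every lysate (17.8%). IP 1 was above all lysates for 37 members (41.7% of all genes) and below for 14 (45.9%). IP 2 was above for 32 (40.7%) and below for 16 (42.3%), and IP 3 above for 31 (39.4%) and below for 16 (51.4%). These counts hide an exchange of genes: 9 members were above the lysates in IP 1 and IP 3 and below them in IP 2, and 6 showed the opposite pattern. Of the 27 members that rose in the 5-library fit, 13 were also above every lysate in the library labelled immunoprecipitate 2, 5 were within the lysates' range and 9 were below it. Of the 7 that fell, 5 were above every lysate there and 2 below.

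**Figure D1:**
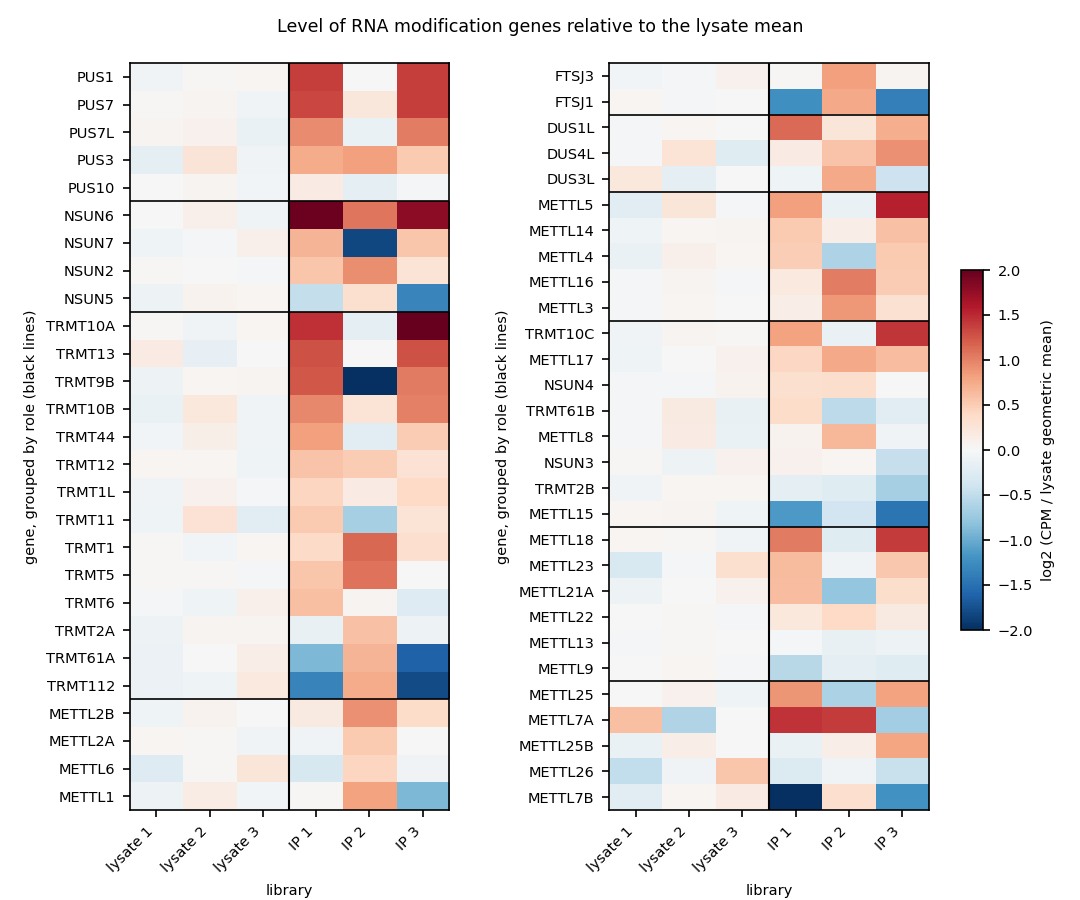
Colours give the log2 level (CPM) of 56 members in each library relative to the geometric mean of the lysates, with the scale ending at -2 and 2 and black lines between roles; METTL27, at 0 in 1 library, and the 2 members not tested are left out. IP 1 and IP 3 look alike. For 9 members IP 2 is below every lysate while the other 2 are above every lysate. For 6 members the reverse holds (METTL27 is 1 of the 6).

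Pseudouridine synthase mRNAs were higher in IP 1 and IP 3 for all but PUS10. Of 5 genes, 4 rose in the 5-library fit (23.9% of all tested genes did) and 0 fell (27.2% of all genes), with a median log2 fold change of 1.00; over 6 libraries the median was 0.70 and 0 were called. PUS7, which modifies tRNA and mRNA, was at 38.3, 39.1 and 36.0 CPM across the lysates against 95.5, 44.4 and 98.1 CPM in the immunoprecipitates. All 3 immunoprecipitates were above all lysates, IP 2 only narrowly. The log2 fold change of PUS7 was 1.07 (SE 0.32; adjusted p = 0.152 by edgeR) over 6 libraries and 1.37 (SE 0.07; adjusted p = 1.87e-05 by edgeR) in the 5-library fit. PUS1, the synthase of cytoplasmic and mitochondrial tRNAs, had 15.5, 16.6 and 16.8 CPM in lysates and 42.5, 16.3 and 42.2 CPM in the immunoprecipitates. Here the library labelled immunoprecipitate 2 lay within the lysates. Its log2 fold change was 1.05 (SE 0.38; adjusted p = 0.202 by edgeR) over 6 libraries and 1.39 (SE 0.08; adjusted p = 3.49e-05 by edgeR) in the 5-library fit. The paralog PUS7L followed the same pattern, with 29.8 to 35.0 CPM in lysates and 63.6, 30.1 and 67.0 CPM in the immunoprecipitates. PUS3, which acts at the tRNA anticodon arm, differed from these: its 13.2, 13.9 and 11.3 CPM in the immunoprecipitates were all above the 6.87, 9.37 and 7.49 CPM of the lysates (log2 fold change 0.69, SE 0.25, adjusted p = 0.196 by edgeR and 0.0152 by DESeq2, and 0.65, SE 0.19, edgeR adjusted p = 0.0296 in the 5-library fit). PUS10, an archaeal-type synthase, was at 8.67 to 9.37 CPM in lysates and 10.2, 7.95 and 8.80 CPM in the immunoprecipitates, and was not called in either fit. Per length, PUS7 was the most abundant of the family in lysates, at 10.5 ± 1.04 FPKM (SD, n = 3). In IP 1 and IP 3 most PUS1 counts were on transcripts not annotated as protein_coding. Their share was 9.50, 18.3 and 24.5% in lysates and 55.8, 15.8 and 68.8% in the immunoprecipitates. For PUS7 it was 13.5, 16.1 and 1.77% in lysates and 28.7, 1.06 and 37.9% in the immunoprecipitates. It was 0% for PUS3 in every library and at most 0.188% for PUS7L.

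The cytosine methyltransferases held the member with the largest rise. NSUN6, which methylates particular tRNAs and mRNA sites, was at 4.93, 5.36 and 4.67 CPM in lysates and 19.4, 10.4 and 17.2 CPM in the immunoprecipitates. Each immunoprecipitate was thus well above the lysates, the library labelled immunoprecipitate 2 included. Its log2 fold change was 1.65 (SE 0.31) over 6 libraries, with the lowest adjusted p of the members (edgeR adjusted p = 0.0836), and 1.89 (SE 0.15; adjusted p = 0.000133 by edgeR) in the 5-library fit; DESeq2 called it (adjusted p = 1.41e-05). NSUN2, the broad m5C enzyme of tRNA and mRNA, was the most abundant NSUN per length (24.3 ± 0.526 FPKM in lysates, SD, n = 3). It stood at 77.0, 76.2 and 74.6 CPM in lysates and 112, 145 and 92.0 CPM in the immunoprecipitates, without overlap, and highest in IP 2. The log2 fold change of NSUN2 was 0.62 (SE 0.21; adjusted p = 0.182 by edgeR; DESeq2 adjusted p = 0.0448) over 6 libraries and 0.44 (SE 0.09; adjusted p = 0.00757 by edgeR) in the 5-library fit. NSUN5, a methyltransferase of large-subunit rRNA, fell in the 5-library fit (log2 fold change -0.83, SE 0.24, adjusted p = 0.0305 by edgeR), while over 6 libraries the value was -0.34 (SE 0.41; adjusted p = 0.666 by edgeR). Its values were 23.4, 26.2 and 25.8 CPM in lysates and 18.0, 31.4 and 10.0 CPM in the immunoprecipitates, so only the library labelled immunoprecipitate 2 was above the lysates. Reads of NSUN5 can be shared with its near-identical pseudogenes: NSUN5P2 was at 3.13, 2.58 and 3.47 CPM in lysates and 9.42, 3.26 and 7.72 CPM in the immunoprecipitates, and NSUN5P1 at 10.7 to 12.3 CPM and 17.3, 18.3 and 9.80 CPM, so the level of NSUN5 is uncertain. NSUN7 was above the lysates (14.5 to 16.5 CPM) in IP 1 and IP 3 (24.4 and 22.4 CPM) and far below them in IP 2 (4.33 CPM).

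The TRMT series, without the genes listed below for mitochondrial RNA, comprised 14 genes, the partner subunit TRMT112 among them. In the 5-library fit 8 rose (23.9% of all tested genes did) and 2 fell (27.2% of all genes), TRMT112 being 1 of these 2 (median log2 fold change 0.41), and 0 were called over 6 libraries (median 0.45). TRMT10A, the cytoplasmic m1G enzyme, was at 5.88, 5.46 and 5.94 CPM in lysates and at 15.9, 5.11 and 23.8 CPM in the immunoprecipitates. IP 1 and IP 3 were far above, and the library labelled immunoprecipitate 2 was below all lysates. The log2 fold change of TRMT10A was 1.38 (SE 0.54; adjusted p = 0.224 by edgeR) over 6 libraries and 1.80 (SE 0.21; adjusted p = 0.000612 by edgeR) in the 5-library fit. Its paralog TRMT10B was higher in all 3 immunoprecipitates (12.5, 7.77 and 13.0 CPM) than in lysates (5.85, 7.44 and 6.12 CPM). TRMT13 was at 13.8, 11.0 and 12.4 CPM in lysates and at 29.9, 12.3 and 29.8 CPM in the immunoprecipitates, with IP 2 inside the lysates' range. Its log2 fold change was 0.95 (SE 0.38; adjusted p = 0.225 by edgeR) with all libraries and 1.28 (SE 0.14; adjusted p = 0.00044 by edgeR) in the 5-library fit. TRMT9B, a relative of wobble-uridine methyltransferases, had the widest split of the 14: 9.74 to 10.9 CPM in lysates, 24.6 and 21.4 CPM in IP 1 and IP 3, and 2.24 CPM in IP 2. TRMT1, which makes dimethylguanosine in tRNA, showed the reverse ranking: it was above its lysates (32.9 to 34.8 CPM) in all 3, at 44.2, 75.4 and 43.1 CPM, with IP 2 highest. Its relative TRMT1L (32.1, 26.6 and 31.3 CPM against 22.7 to 25.2 CPM) and the wybutosine enzyme TRMT12 (16.0, 15.4 and 13.3 CPM against 10.2 to 11.1 CPM) were also above all lysates in each immunoprecipitate. TRMT44, a tRNA ribose methyltransferase, was at 9.50 to 10.8 CPM in lysates and 17.6, 8.58 and 14.1 CPM in the immunoprecipitates. TRMT5, the m1G enzyme beside the anticodon, was at 20.8 to 21.8 CPM in lysates and 31.6, 45.8 and 21.5 CPM, and TRMT2A, which makes the T-loop methyluridine, at 19.4 to 21.6 CPM and 18.8, 31.2 and 19.5 CPM. TRMT5, TRMT6, TRMT11 and TRMT2A were not called in either fit.

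The shared subunit TRMT112 and its partners went in different directions in IP 1 and IP 3. TRMT112 stabilises several methyltransferases, among them TRMT11, METTL5, THUMPD2, THUMPD3, ALKBH8 and BUD23; the last 4 are not members and were picked as known partners after values were seen. TRMT112 was at 27.0, 27.6 and 33.4 CPM in lysates and at 11.6, 48.9 and 8.49 CPM in the immunoprecipitates. IP 1 and IP 3 were below every lysate and the library labelled immunoprecipitate 2 above every lysate. The fold change of TRMT112 was -0.35 on the log2 scale (SE 0.66; adjusted p = 0.791 by edgeR) over 6 libraries and -1.53 (SE 0.18; adjusted p = 0.000683 by edgeR) in the 5-library fit. In the 5-library fit METTL5 rose (1.24), as did THUMPD2 (1.39), THUMPD3 (0.39) and ALKBH8 (0.68), BUD23 fell (-0.49), and TRMT11 was at 0.40 without a call, all as log2 fold changes. Over 6 libraries the same 6 genes had 0.89, 1.08, 0.40, 0.79, -0.13 and 0.11, none called by edgeR. TRMT61A, the catalytic subunit of the enzyme that makes m1A in the tRNA T-loop, had the same pattern as TRMT112: 9.42, 10.2 and 11.2 CPM in lysates and 5.49, 16.4 and 3.34 CPM in the immunoprecipitates. The fold change of TRMT61A on the log2 scale was -0.29 (SE 0.59; adjusted p = 0.811 by edgeR) over 6 libraries, and -1.20 (SE 0.26; adjusted p = 0.00926 by edgeR) in the 5-library fit. Its partner TRMT6 was at 27.1, 26.1 and 29.8 CPM in lysates and 42.0, 28.6 and 23.0 CPM in the immunoprecipitates, with 1 of 3 clearly above and 1 below, and was not called.

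**Figure D2:**
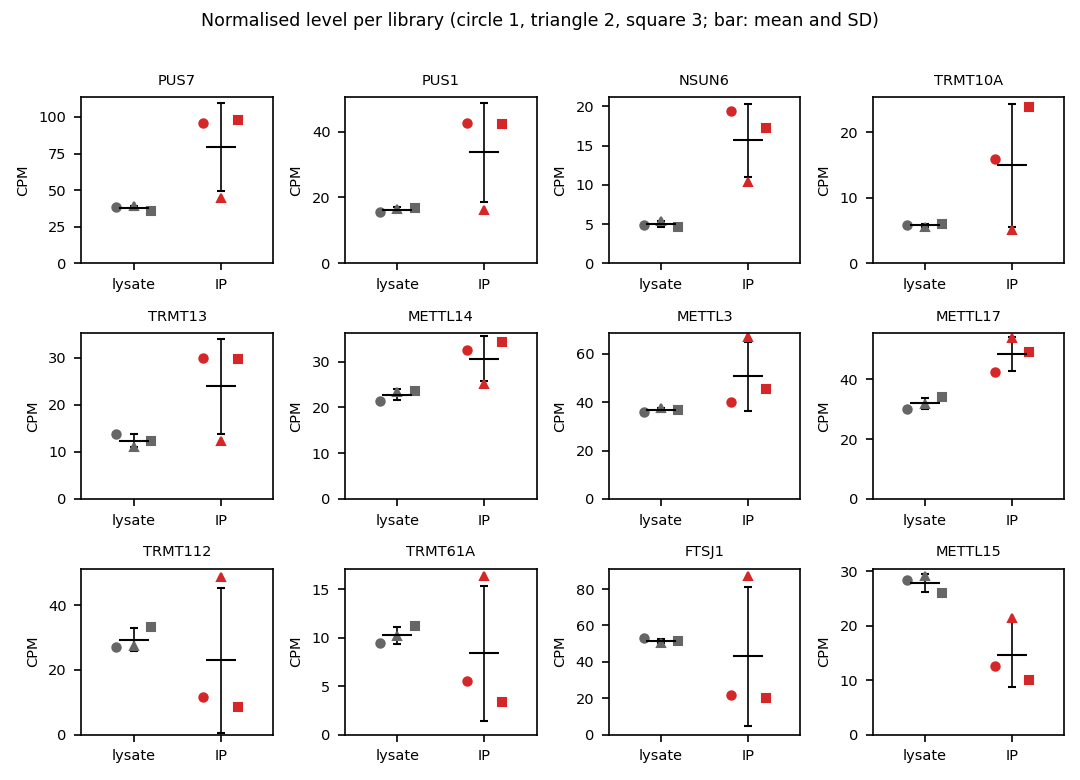
Each panel gives the CPM of 1 member in the 3 lysates (grey) and 3 immunoprecipitates (red), with circles, triangles and squares for libraries 1, 2 and 3 and a bar for the mean and SD. For PUS7, PUS1, TRMT10A and TRMT13 the triangle of IP 2 sits close to the lysates, for TRMT112, TRMT61A and FTSJ1 it lies above them while IP 1 and IP 3 lie below, and for NSUN6 and METTL17 all 3 immunoprecipitates lie above.

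The ribose methyltransferases named FTSJ were 2 genes, apart from TRMT13 and TRMT44 above. FTSJ1, which methylates the anticodon loop of tRNAs, was at 52.9, 50.6 and 51.4 CPM in lysates and at 22.0, 87.0 and 19.96 CPM in the immunoprecipitates. IP 1 and IP 3 were below, and IP 2 above, lysates that lay between 50.6 and 52.9 CPM. The fold change of FTSJ1 was -0.26 on the log2 scale (SE 0.59; adjusted p = 0.827 by edgeR) over 6 libraries and -1.29 (SE 0.08; adjusted p = 4.81e-05 by edgeR) in the 5-library fit. WDR6, its partner in anticodon methylation and not a member, was at 98.0 to 106 CPM in lysates and 146, 98.8 and 168 CPM in the immunoprecipitates, so the pair went in opposite directions in IP 1 and IP 3. FTSJ3, a ribosome-assembly methyltransferase, stayed near its lysate level of 70.8 to 78.5 CPM in IP 1 and IP 3 (75.5 and 76.9 CPM) and was at 130 CPM in IP 2; it was not called. Of the dihydrouridine synthases, DUS1L was above its lysates (37.8, 39.5 and 38.1 CPM) in all 3 immunoprecipitates, at 84.5, 45.5 and 63.7 CPM. Its log2 fold change was 0.75 (SE 0.25; adjusted p = 0.181 by edgeR; DESeq2 adjusted p = 0.0476) over 6 libraries and 0.96 (SE 0.12; adjusted p = 0.00083 by edgeR) in the 5-library fit. DUS3L and DUS4L were not called, and DUS4L shares exons with a read-through gene, DUS4L-BCAP29, which leaves its level uncertain.

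The adenosine methyltransferases of the METTL series were 5, of which 4 rose in the 5-library fit (23.9% of all tested genes did) and 0 fell (27.2% of all genes; median log2 fold change 0.52), with a median of 0.47 and no call over 6 libraries. METTL14, the RNA-binding partner in the m6A writer, was at 21.3, 23.4 and 23.6 CPM in lysates and 32.6, 25.1 and 34.3 CPM in the immunoprecipitates (log2 fold change 0.43, SE 0.20, adjusted p = 0.272 by edgeR, and 0.57, SE 0.09, adjusted p = 0.00222 in the 5-library fit). METTL3, the catalytic subunit, was at 36.1, 37.7 and 36.7 CPM in lysates and at 40.1, 67.0 and 45.3 CPM in the immunoprecipitates (log2 fold change 0.47, SE 0.24, adjusted p = 0.309 by edgeR, and 0.23, SE 0.08, adjusted p = 0.056 in the 5-library fit). Most METTL3 counts were on transcripts not annotated as protein_coding, 86.7, 82.2 and 79.9% in lysates and 98.9, 59.0 and 94.4% in the immunoprecipitates, so its level is mainly that of such transcripts. Both were above all lysates in each immunoprecipitate, but METTL3 was highest in IP 2 and METTL14 lowest there. METTL16, which methylates U6 small nuclear RNA and the MAT2A transcript, followed METTL3 (34.7 to 37.2 CPM in lysates, and 41.0, 72.5 and 50.4 CPM in the immunoprecipitates) and rose in the 5-library fit (0.37 on the log2 scale, SE 0.11, adjusted p = 0.026 by edgeR, against 0.62, SE 0.25, adjusted p = 0.225 over 6 libraries). METTL5, the small-subunit rRNA enzyme, was at 25.5, 34.7 and 28.9 CPM in lysates and 51.7, 26.7 and 86.6 CPM in the immunoprecipitates, IP 2 lying within the lysates' range. METTL4, an enzyme of U2 small nuclear RNA, was at 17.2 to 20.2 CPM in lysates, 26.6 and 27.2 CPM in IP 1 and IP 3, and 12.3 CPM in IP 2.

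Of the METTL enzymes of tRNA, METTL2B rose in the 5-library fit and METTL1, METTL2A and METTL6 were not called. METTL1, the m7G enzyme, was at 10.5 to 12.5 CPM in lysates and 11.4, 19.7 and 6.03 CPM in the immunoprecipitates, and its non-catalytic partner WDR4, not a member, at 6.29 to 8.04 CPM and 6.04, 25.7 and 4.30 CPM. Both subunits were thus above the lysates in IP 2 and below them in IP 3. METTL2A and METTL2B are near-identical copies, so reads may be split between them: METTL2B was at 27.1 to 30.3 CPM in lysates and 32.4, 54.1 and 37.1 CPM in the immunoprecipitates, METTL2A at 19.3 to 20.9 CPM and 19.3, 29.1 and 20.2 CPM.

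Of the 8 genes listed here for mitochondrial RNA, 2 rose in the 5-library fit, a share near that of all tested genes (23.9%). In that fit 1 fell (27.2% of all genes) and 5 were not called. The median log2 fold change of the 8 was 0.06, and 0.08 over 6 libraries with no call. TRMT10C, the methyltransferase subunit of mitochondrial RNase P, was at 25.1, 27.4 and 26.7 CPM in lysates and at 46.2, 24.1 and 71.1 CPM in the immunoprecipitates, IP 2 being below all lysates. Its log2 fold change was 0.84 (SE 0.39; adjusted p = 0.272 by edgeR) over 6 libraries and 1.17 (SE 0.18; adjusted p = 0.00208 by edgeR) in the 5-library fit. HSD17B10, the dehydrogenase that forms a complex with TRMT10C and is not a member, showed the opposite: 43.8 to 47.8 CPM in lysates and 15.0, 65.6 and 8.60 CPM in the immunoprecipitates. METTL17, a mitochondrial ribosome assembly factor, was at 30.0, 31.8 and 33.9 CPM in lysates and 42.5, 53.8 and 49.1 CPM in the immunoprecipitates, a separation without overlap. METTL17 had a log2 fold change of 0.60 (SE 0.17; adjusted p = 0.142 by edgeR; DESeq2 adjusted p = 0.00714) over 6 libraries and 0.54 (SE 0.10; adjusted p = 0.00438 by edgeR) in the 5-library fit. Transcripts not annotated as protein_coding held 44.7, 58.4 and 45.4% of METTL17 counts in lysates and 64.6, 51.7 and 71.2% in the immunoprecipitates. METTL15, which methylates the small mitochondrial rRNA, was the member with the lowest 6-library fold change: 28.4, 29.0 and 26.0 CPM in lysates and 12.5, 21.4 and 10.1 CPM in the immunoprecipitates. All 3 immunoprecipitates were below all lysates (log2 fold change -0.92, SE 0.32, adjusted p = 0.183 by edgeR, and -1.28, SE 0.14, adjusted p = 0.000418 by edgeR in the 5-library fit). TRMT2B was also below all lysates in each immunoprecipitate (28.4, 27.4 and 20.4 CPM against 30.7 to 33.4 CPM) but was not called. NSUN4, an rRNA methyltransferase of the mitochondrial ribosome, was at 25.3 to 27.1 CPM in lysates and 32.3, 32.9 and 25.8 CPM in the immunoprecipitates, and NSUN3, the enzyme of mitochondrial methionine tRNA, at 14.7 to 16.7 CPM and 16.8, 16.2 and 11.5 CPM. METTL8, the mitochondrial m3C enzyme, was at 14.8 to 18.2 CPM and 17.1, 25.7 and 15.5 CPM, and TRMT61B, the mitochondrial m1A enzyme, at 23.2 to 29.4 CPM and 33.3, 18.1 and 22.3 CPM. None of these 4 was called in either fit.

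Of 6 protein methyltransferases tested in the METTL series, 3 rose (23.9% of all tested genes did) and 1 fell (27.2% of all genes) in the 5-library fit, and 0 were called over 6 libraries. METTL18, which methylates a histidine of a ribosomal protein, was at 4.22 to 4.54 CPM in lysates and 9.12, 3.75 and 11.7 CPM in the immunoprecipitates (log2 fold change 0.89, SE 0.45, adjusted p = 0.313 by edgeR, and 1.25, SE 0.20, adjusted p = 0.00253 in the 5-library fit). METTL9, another histidine methyltransferase, fell in the 5-library fit (-0.38 on the log2 scale, SE 0.10, adjusted p = 0.0233 by edgeR, against -0.32, SE 0.17, adjusted p = 0.335 over 6 libraries) and was below all lysates in each immunoprecipitate (47.9, 61.9 and 59.2 CPM against 68.3 to 72.2 CPM). METTL13, which methylates the elongation factor eEF1A, had 64.1, 66.7 and 65.3 CPM in lysates and 63.7, 59.0 and 61.2 CPM in the immunoprecipitates, among the smallest differences of the family, and the sign of its fold change turns with library totals as the scale. Of the remaining 6 METTL genes tested, METTL25 rose and METTL7B fell in the 5-library fit. METTL7B, a small-molecule thiol methyltransferase, was at 3.99 to 5.15 CPM in lysates and 0.786, 5.80 and 1.98 CPM in the immunoprecipitates.

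**Figure D3:**
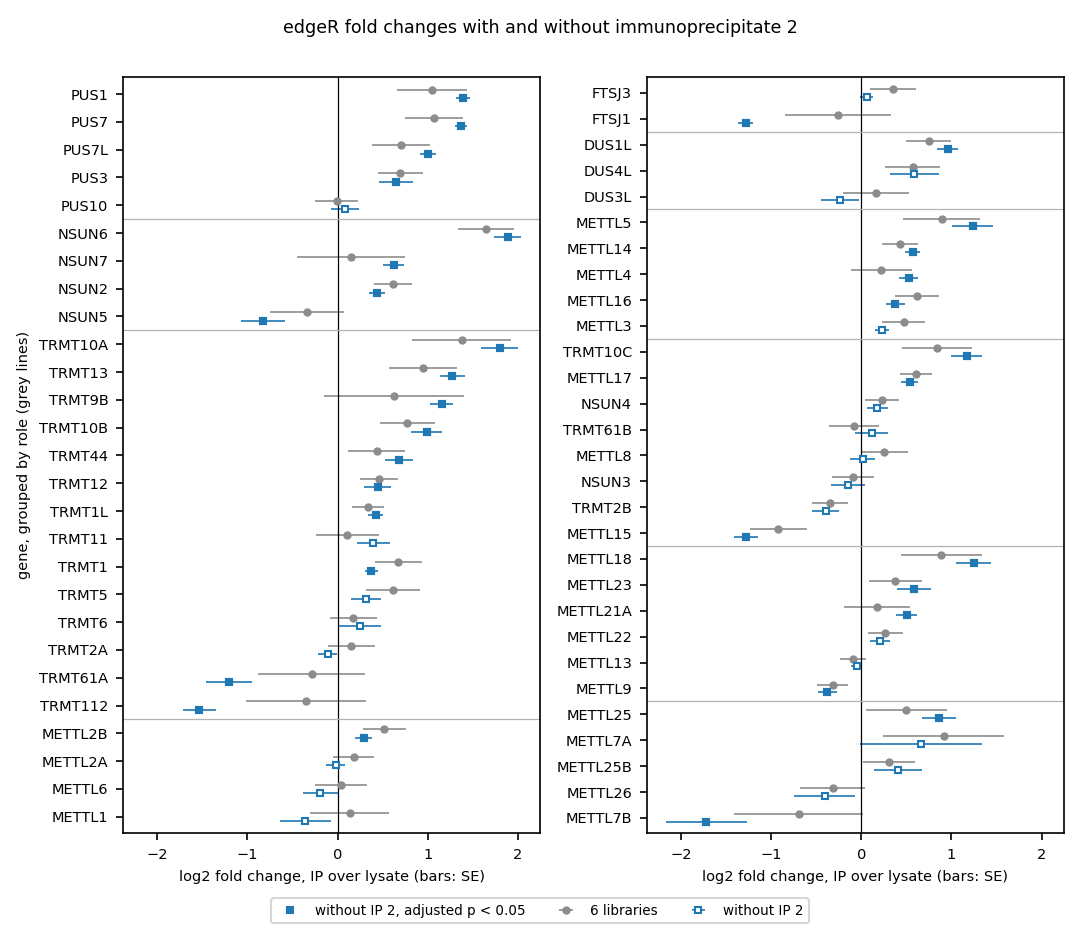
Points are edgeR log2 fold changes (immunoprecipitate over lysate) with SE for the same 56 members, grey circles for all 6 libraries and blue squares without IP 2, filled where the adjusted p is below 0.05. None of the grey circles passed the test. The squares of FTSJ1 (-1.29 against -0.26) and PUS1 (1.39 against 1.05) lie further from 0 than the circles, with shorter bars.

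Other RNA modification genes outside the name rule were followed as a list of 89, all found. Over 6 libraries 0 were called in either direction by edgeR (21 higher and 5 lower at an unadjusted p below 0.05), and in the 5-library fit 42 rose (47.2%, against 23.9% of all tested genes) and 25 fell (28.1%, against 27.2%). The list's median log2 fold change was 0.30 over 6 libraries and 0.26 in the 5-library fit, where the members had 0.35 and 0.37. The list's partners of the m6A writers had 6 rises and 1 fall among 8, erasers and readers 5 and 3 among 10, and further tRNA modifiers 23 and 7 among 40. The list of box H/ACA proteins and other pseudouridine synthases had a median of the other sign than the PUS genes: 2 rose and 7 fell of 11 (median -0.65 in the 5-library fit). The 7 include GAR1, NHP2 and NOP10, H/ACA proteins that are not synthases themselves, beside the synthases TRUB1, TRUB2, RPUSD1 and RPUSD3. The 2 that rose were RPUSD4 and DKC1, the H/ACA synthase. DKC1 was at 102, 109 and 103 CPM in lysates and 143, 187 and 146 CPM in the immunoprecipitates. Its log2 fold change was 0.60 (SE 0.18; adjusted p = 0.148 by edgeR) over 6 libraries and 0.48 (SE 0.05; adjusted p = 0.000581 by edgeR) in the 5-library fit. RPUSD4, a mitochondrial synthase of that list, was at 16.5, 19.7 and 18.1 CPM in lysates and 39.8, 37.2 and 39.9 CPM in the immunoprecipitates, with no overlap and near-equal values in all 3 (log2 fold change 1.11, SE 0.17, adjusted p = 0.0579 by edgeR, and 1.16, SE 0.10, adjusted p = 0.000143 in the 5-library fit). ZC3H13, a scaffold of the m6A writer, stood at 84.6, 81.4 and 91.4 CPM against 46.6 to 48.0 CPM in lysates, and the m6A eraser ALKBH5 at 206, 180 and 205 CPM against 112 to 119 CPM. NOP2, an rRNA cytosine methyltransferase, and CMTR2, a cap methyltransferase, had log2 fold changes of 0.74 and 0.73 over 6 libraries (edgeR adjusted p = 0.168 and 0.17) and of 0.54 and 0.93 in the 5-library fit (edgeR adjusted p = 0.0202 and 0.000138).

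The transcript types that carry the members' counts were compared next. The share of member counts on transcripts not annotated as protein_coding was 12.01, 13.5 and 11.4% in the lysates and 20.6, 15.9 and 20.2% in the immunoprecipitates, that is 12.3 ± 1.04% and 18.9 ± 2.62% (SD, n = 3 each). The difference of 6.62 percentage points gave p = 0.1 in a two-sided exact permutation test, the smallest value that 3 against 3 libraries allow. Retained-intron transcripts took 5.57 to 5.71% of member counts in lysates and 9.49, 8.25 and 9.73% in the immunoprecipitates, and nonsense-mediated-decay transcripts 3.88 to 5.37% and 7.55, 5.79 and 8.75%. Over all tested genes that have a protein_coding transcript the non-coding share was 9.38, 10.0 and 9.98% in lysates and 15.0, 10.2 and 15.2% in the immunoprecipitates. IP 2 there lay close to the lysates, and the same permutation test also gave p = 0.1. As a mean over members with at least 20 counts in every library, IP 2 was close to the lysates too. That mean share was 11.6, 12.9 and 11.2% in lysates and 20.6, 13.6 and 23.0% in the immunoprecipitates. Transcript counts are estimates that divide reads between overlapping isoforms. Of 56 members with at least 20 counts in every library, 9 had a higher share in every immunoprecipitate than in any lysate. This is near the proportion among all 12851 such genes (14.2%). A lower share was found for 0 members (3.72% of all genes).

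TRMT11, the tRNA m2G enzyme that works with TRMT112, had the largest difference in share among the 9. Its protein-coding transcript ENST00000334379 held 856, 1360 and 968 counts in the lysates and 736, 376 and 0 in the immunoprecipitates, while ENST00000648977, a nonsense-mediated-decay transcript of 23 exons, held 168, 92 and 137 and then 495, 75 and 945. The non-coding share of TRMT11 was 17.5, 6.24 and 13.5% in lysates and 44.8, 23.8 and 100% in the immunoprecipitates. NSUN5 went from 19.2, 30.1 and 8.81% to 43.8, 34.0 and 59.6%, with the retained-intron transcript ENST00000471461 as its main non-coding form. For TRMT10B the shares were 16.2, 25.4 and 14.1% and then 28.4, 45.4 and 57.5%, and for TRMT9B 18.5, 6.96 and 10.5% and then 25.9, 31.1 and 38.1%. METTL26, like METTL3, was mostly non-coding in both groups, at 56.9, 64.8 and 57.0% and then 86.1, 79.1 and 79.5%. The non-coding share of PUS1 was 9.50, 18.3 and 24.5% in lysates and 55.8, 15.8 and 68.8% in the immunoprecipitates. Much of the PUS1 rise lay on a single retained-intron transcript, ENST00000543754. It held 102, 230 and 336 counts in lysates and 1493, 123 and 1861 in the immunoprecipitates. The coding transcript ENST00000376649 held 745, 454 and 415 counts in lysates and 765, 561 and 400 in the immunoprecipitates. Another, ENST00000542167, held 291, 608 and 662 and then 375, 155 and 442. The rise of NSUN6 was on its coding transcript ENST00000377304, with 366, 436 and 392 counts and then 1209, 546 and 1064. Counts of single transcripts in this paragraph are not scaled to library size, and the immunoprecipitate libraries held fewer counts than the lysates.

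**Figure D4:**
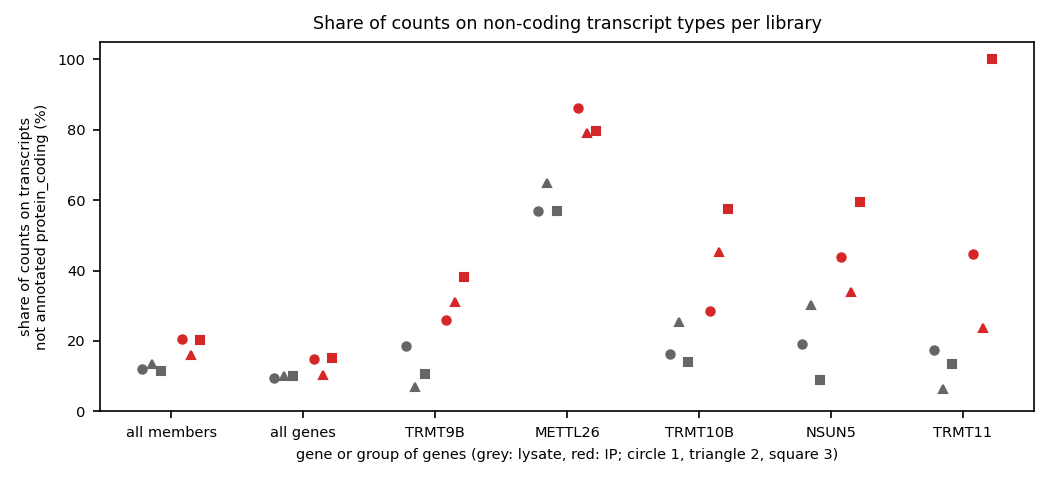
The y axis gives the percentage of counts on transcripts not annotated protein_coding in each library (grey lysates, red immunoprecipitates; circle, triangle and square for libraries 1, 2 and 3), for the 59 members together, for all tested genes with a protein_coding transcript (all genes), and for the 5 members named by the share rule. The members' immunoprecipitates lie at 15.9 to 20.6% above lysates at 11.4 to 13.5%, and TRMT11 reaches 100% in IP 3.

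The members lie on many chromosomes. On GRCh38.p14, as the gene table gives them, PUS7 (ENSG00000091127) is at chr7:105439661-105522267 on the minus strand, NSUN6 (ENSG00000241058) at chr10:18545561-18659267 on the minus strand, and TRMT10A (ENSG00000145331) at chr4:99546709-99564039 on the minus strand. TRMT112 (ENSG00000173113) is at chr11:64316460-64317559 on the minus strand, METTL15 (ENSG00000169519) at chr11:28108248-28410799 on the plus strand, and FTSJ1 (ENSG00000068438) at chrX:48476021-48486364 on the plus strand. Of the 59 genes, 35 overlap another annotated gene, 29 of them one on the opposite strand. The libraries marked strand, but the sources used here do not state whether counting used it, and the levels of METTL5 (with SSB), METTL3 (with TOX4), PUS3 (with HYLS1), TRMT112 (with ESRRA), TRMT13 (with LRRC39) and FTSJ3 (with PSMC5) are uncertain to that extent. Fold changes had little rank relation to the length of the main transcript: Spearman's rho across 57 members was 0.08 for the 6-library fit and 0.11 for the 5-library fit, with genes as the points and library and depth shared by all. The rho with the mean lysate level was -0.14 and -0.16 for members, and -0.29 and -0.23 over all tested genes.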

How the data were processed

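RNA from 3 lysates and 3 FLAG immunoprecipitates of HK2 cells was analysed, grouped by their titles; the treatment labels number the plasmid across samples and were not used for grouping. Per the labels' protocols, polyadenylated RNA was made into dUTP-stranded paired-end libraries. In the submitters' processing notes the tools StringTie 2.1.6, HISAT2 2.2.1, cutadapt 1.9, edgeR and DESeq2 appear without role or order, with the build GRCh38.p14. Per the file headers, the authors gave counts (whole numbers) for genes and for transcripts. They also deposited FPKM, which divides by length and library size; FPKM printed here is summed over a gene's transcripts.

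Counts were fitted with edgeR 4.0.16 (quasi-likelihood, TMM, filterByExpr, R 4.3.3) over all genes, with Benjamini-Hochberg adjustment at 0.05; the SE is the absolute log2 fold change over the square root of F. Alternatives were DESeq2 1.42.0, limma 3.58.1 on log2(FPKM + 1) and log2(FPKM + 0.1), other scalings and filters, a replicate block and each library left out. The code was tested on simulated data. Members and lists were chosen with earlier results of these data known. Named were, per role list, the 3 lowest p-values and the highest FPKM in lysates, the lowest p per further list, and 5 members by non-coding share; 1 gene so named is not reported here, and members described beyond these were chosen after their values were seen. Libraries held 77753608 to 92948069 counts per lysate and 54363555 to 59293096 per immunoprecipitate; 3 libraries a group limit the precision.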

Additional observations from a re-analysis of the deposited data

How the results depend on the processing

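Calls depended most on the library labelled immunoprecipitate 2. Members called higher were 0 with all 6 libraries, 7 with DESeq2, 1 with limma on log2(FPKM + 1), and 0 to 27 when 1 library was left out, the 27 being without immunoprecipitate 2; without it they were 28 with RLE size factors and 31 with library totals, settings added after seeing the data. Members called lower were 0 to 7 with 1 library left out, and 7 and 5 without immunoprecipitate 2 under those 2 scalings. Genes of the 89-gene list called higher were 0 in the main setting, 3 with at least 1 CPM in 3 libraries, 16 with DESeq2, 9 with limma on log2(FPKM + 1), 0 to 42 with 1 library left out, and 43 and 49 without immunoprecipitate 2 with RLE factors and library totals; those called lower were 2 with DESeq2, 0 to 25 with 1 library left out, and 23 and 21.

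The members' median log2 fold change of 0.35 was 0.48 with library totals, 0.43 with the 1 CPM filter, 0.27 to 0.37 with 1 library left out, and 0.55 without immunoprecipitate 2 with library totals. Same-numbered lysates and immunoprecipitates had correlations of deviations from their group means of -0.01, -0.05 and 0.01, which gave no sign of pairing. With 3 libraries a group, and IP 2 unlike the other immunoprecipitates, these values cannot exclude pairing. With the replicate block the median was 0.26 and 0 members were called in either direction (main setting also 0). The non-coding share difference of 6.62 points stayed positive, at 5.76 to 8.13 points with 1 library left out.

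Of 640 alternative values for 40 named genes, 514 kept direction and side of the threshold, 108 passed it newly and 18 changed sign. Sign changes were: DUS3L at -0.24 without immunoprecipitate 2, -0.21 with RLE and -0.061 with library totals; METTL1 at -0.018 with the replicate block and, without immunoprecipitate 2, -0.36, -0.33 with RLE and -0.18 with library totals; METTL13 at 0.050 with library totals, 0.050 with log2(FPKM + 1), 0.053 with log2(FPKM + 0.1), and 0.12 without immunoprecipitate 2 with library totals. With 1 library left out, FTSJ1 ran from -1.29 to 0.060 (0.033 without immunoprecipitate 1), METTL1 from -0.36 to 0.45, METTL25B from -0.015 to 0.47, METTL2A from -0.021 to 0.27, TRMT11 from -0.16 to 0.40 (-0.014 without lysate 3) and TRMT112 from -1.53 to 0.024. The cause of these changes was not tested.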
